A study of Saccharomyces cerevisiae with 19 samples.

Results

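The comparison follows a yeast strain labelled as lacking SCH9 through stationary culture and sets its arrays at 84, 96 and 108 h against its arrays at 36, 48 and 60 h. The 6 arrays were chosen by their labelled strain and hour, with earlier results of these data known. The series held 19 arrays, of which 9 were of the sch9 mutant and 10 of the wild type. Each array was made from total RNA of Saccharomyces cerevisiae and each hour of each strain was read once, so the 3 hours of a window stood in for replicates. The groups were the sch9 mutant at 84 to 108 h, the sch9 mutant at 36 to 60 h, the wild type at 84 to 108 h and the wild type at 36 to 60 h, with 3 arrays each. Both strains were started from frozen stocks, grown overnight in SDC, a synthetic complete medium, diluted and shaken at the same temperature with no other treatment. The labels used here state neither the strain background, the mating type and the marker used for the deletion nor whether the hours of a strain were drawn from the same flask. The p-values below therefore measure the spread between neighbouring hours of what may be a single culture.

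Sch9 is a protein kinase that acts downstream of the TOR complex and of nutrient supply. In growing cells it promotes the making of ribosomes and holds back the stress programme that the kinase Rim15 and the transcription factors Msn2, Msn4 and Gis1 switch on at starvation. Yeast without Sch9 grows slowly and survives for longer in stationary culture, and stationary cells in general store glycogen and trehalose and carry high levels of heat shock proteins.

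The signal is a log2 value per probe set, and a difference of 1 is a 2-fold change. A total of 5449 genes was tested. SCH9 itself (YHR205W), the gene named as deleted, read 10.57, 10.58 and 10.48 at 84, 96 and 108 h and 10.07, 10.32 and 10.36 at 36, 48 and 60 h. The windows did not overlap, and the difference of 0.30 (SE 0.09) did not pass (limma, adjusted p = 0.0697). The probe set gave signal in every mutant array, between 10.07 and 10.59, against 10.43 to 11.26 in the wild type, and the labels do not place it relative to the deleted part, so it does not check the label. URA3 (YEL021W), a common deletion marker, read 9.41 to 10.19 in the mutant arrays against 7.63 to 8.49 in the wild type and differed by -0.02 between the mutant windows (adjusted p = 0.882).

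The mutant arrays resembled each other closely, with a correlation across genes between 0.948 and 0.994 for the 7 arrays from 36 to 108 h. Genes are not independent points, and these values describe the arrays only. The 96 h array was most like the 60 h array (0.990) and less like the 84 h array (0.976). A score of 3' over 5' signal in 10 control pairs was 0.863, 0.950 and 0.870 at 84, 96 and 108 h and 0.789, 0.757 and 0.862 at 36, 48 and 60 h. The pairs were all those outside ribosomal RNA and URA3, whether or not they read yeast messages. The score therefore does not by itself measure the loss of 5' ends in yeast RNA. The late window lay above the early one (exact permutation p = 0.1, the smallest that 3 against 3 arrays allow), so this score moved with the comparison. When the score entered the fit, which leaves fewer degrees of freedom, 1 gene passed. Among the deposited signals of ribosomal RNA the 3' probe set of 18S lay between 7.10 and 7.52 late and between 6.97 and 7.68 early in the mutant (exact permutation p = 1), the 5' one differed by -0.43 and the 5.8S one by 0.63 (each exact permutation p = 0.1). The part of these signals in the results below was not tested beyond that covariate.

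In the sch9 mutant 646 of 5449 genes (11.9%) passed between 84 to 108 h and 36 to 60 h at an adjusted p under 0.05. They were 263 genes (4.83%) that rose and 383 genes (7.03%) that fell. Most changes were small, with a median size of 0.45, and 17 of the genes that rose and 12 of those that fell changed at least 2-fold. Among the genes that passed, the largest rises were those of PHO84, SUL1 and PHO89, which take up phosphate and sulphate, and the largest falls those of MF(ALPHA)1, which encodes the mating pheromone alpha-factor, and of YDL218W, which has no assigned role. At an unadjusted p under 0.05 there were 1818 genes. Over all genes the late window lay wholly above the early one for 957 (17.6%) and wholly below it for 1130 (20.7%), and each of the 646 genes was among these.

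The number of genes that passed depended strongly on single arrays. It was 27 without the 84 h array, 847 without 96 h, 4 without 108 h, 70 without 36 h, 4 without 48 h and 538 without 60 h. PHO89, SUL1, RPS22B and IMA5 passed in each of these 6 fits, and they were the 4 genes that passed without 48 h and without 108 h. Each count of mutant genes that rose or fell given below falls to these genes alone when 1 of those arrays is left out. Every one of the 646 genes kept its sign in each of the 6 fits. Their windows did not overlap, so leaving out 1 array could not have turned a sign. With all 19 arrays in the fit, where the spread is also taken from the 12 and 24 h arrays, PHO89 (adjusted p = 0.00262), SUL1 and PET54 (adjusted p = 0.0469 each) passed. Without both the 60 h and 96 h arrays, an alternative added after the data were seen, 257 genes rose and 353 fell, and 457 of them were among the 646. The split of directions also moved with the scaling: 40.7% of the genes that passed were higher after quantile normalization, against 55.2% of those found in the values as deposited and 54.0% with median-centred ones.

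Of the phosphate transporter genes measured, PHO84 and PHO89 rose. PHO84 (YML123C), the main high-affinity phosphate transporter, read 10.91, 9.50 and 10.59 at 84, 96 and 108 h and 7.45, 7.92 and 8.02 at 36, 48 and 60 h. Every late array stood above every early array, with 96 h the lowest of the late ones, and the rise was 2.53 (SE 0.34, adjusted p = 0.0204), or 5.79-fold. PHO89 (YBR296C), the sodium-coupled phosphate transporter, read 9.92, 10.07 and 10.54 late and 7.86, 7.84 and 7.97 early. The early values were flat, and the rise was 2.29 (SE 0.15, adjusted p = 0.00408), or 4.88-fold. At 72 h, which the comparison did not use, PHO84 stood at 9.38 and PHO89 at 8.70, between the windows. The low-affinity transporters of the plasma membrane PHO87 and PHO90 and the vacuolar exporter PHO91 differed by 0.22, 0.54 and 0.23 and did not pass (adjusted p = 0.0844, 0.0567 and 0.144). Paralogues such as these, and the further members of small counts below, were picked after their values had been seen.

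Of the 22 measured genes of the phosphate regulon, which the transcription factor Pho4 switches on when phosphate is short, 4 (18.2%) rose and none fell. Besides the transporters these were PHM6, at 0.59 (SE 0.09, adjusted p = 0.0204), and VTC3, a subunit of the vacuolar polyphosphate polymerase, at 0.42 (adjusted p = 0.0375). The median difference of the list was 0.11, beside -0.01 over all genes tested, of which 4.83% rose and 7.03% fell. The other 18 members did not pass, and between 1 and 5 rose when single arrays were left out.

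SUL1 (YBR294W), a high-affinity sulphate permease, read 10.26, 9.91 and 10.57 at 84, 96 and 108 h and 7.43, 7.70 and 8.10 at 36, 48 and 60 h. The windows lay far apart, although the early values already differed by more than those of PHO89, and the rise was 2.50 (SE 0.21, adjusted p = 0.00521), or 5.66-fold. Its paralogue SUL2 differed by 0.55 and did not pass (adjusted p = 0.114). JLP1 (YLL057C), a dioxygenase that frees sulphite from sulphonates, rose by 1.36 (SE 0.31, adjusted p = 0.0362), from arrays at 10.13, 10.63 and 10.61 late and 8.36, 9.30 and 9.63 early. MMP1, a transporter of S-methylmethionine, rose by 0.86 (SE 0.12, adjusted p = 0.0204). In the list of sulphur and methionine metabolism 5 of 31 genes (16.1%) rose, the other 2 being the regulator MET32 (0.26, adjusted p = 0.0486) and the S-adenosylmethionine synthetase SAM2 (0.25, adjusted p = 0.0482). STR2, a cystathionine gamma-synthase, fell by 0.35 (adjusted p = 0.0484), a call lost in the 3 other scalings. The list median was 0.07, 25 of its genes did not pass, and over all genes 4.83% rose and 7.03% fell.

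MEP1 (YGR121C), an ammonium permease, read 12.13, 11.74 and 12.23 at 84, 96 and 108 h and 9.95, 11.06 and 10.76 at 36, 48 and 60 h. The 36 h array was the lowest by a wide margin, the windows did not overlap, and the rise was 1.44 (SE 0.27, adjusted p = 0.025). The high-affinity permease MEP2 rose by 0.59 (SE 0.14, adjusted p = 0.0423), and MEP3 differed by 0.48 with overlapping windows (adjusted p = 0.271). Nitrogen catabolite repression is the system that silences the use of poor nitrogen sources while good ones last. Among 30 genes under it 4 (13.3%) rose and 1 fell, against 4.83% and 7.03% of all genes, with a list median of 0.04. The other members that rose were UGA4, the permease of gamma-aminobutyrate, by 0.61 (adjusted p = 0.0217), and CAN1, the arginine permease, by 0.47 (adjusted p = 0.0233), while UGA1, the transaminase that breaks gamma-aminobutyrate down, fell by 0.35 (adjusted p = 0.0452). The call of UGA1 was kept with cyclic loess but not in the values as deposited (adjusted p = 0.364) or median-centred (adjusted p = 0.338).

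HXT3 (YDR345C), a low-affinity glucose transporter, read 11.78, 10.91 and 11.34 at 84, 96 and 108 h and 9.72, 10.12 and 9.98 at 36, 48 and 60 h, a rise of 1.41 (SE 0.21, adjusted p = 0.0204). The late arrays were all above the early ones but below the level at 24 h in the same strain, 12.90. HXT8 (YJL214W), a minor hexose transporter of low signal, rose by 1.08 (SE 0.12, adjusted p = 0.0173), with 8.49, 8.49 and 8.59 late and 7.17, 7.50 and 7.67 early. HXT2, a high-affinity transporter, had a mean difference of 2.81, larger than that of any gene that passed, but its arrays read 13.13, 10.53 and 12.96 late and 7.87, 11.42 and 8.90 early. The 96 h value lay below the 48 h value, so the windows overlapped and the difference did not pass (SE 0.99, adjusted p = 0.0966). HXT4 and HXT11 differed by 0.92 and 0.72 without passing (adjusted p = 0.131 and 0.0586), and HXT1, HXT5 and GAL2 by 0.11, 0.04 and 0.16. In the list of hexose transport and sensing 3 of 22 genes (13.6%) rose and none fell, against 4.83% and 7.03% of all genes. Besides HXT3 and HXT8 the list held a rise of STD1, a regulator of glucose-controlled genes (0.32, adjusted p = 0.0482, lost in deposited and median-centred values).

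**Figure D1:**
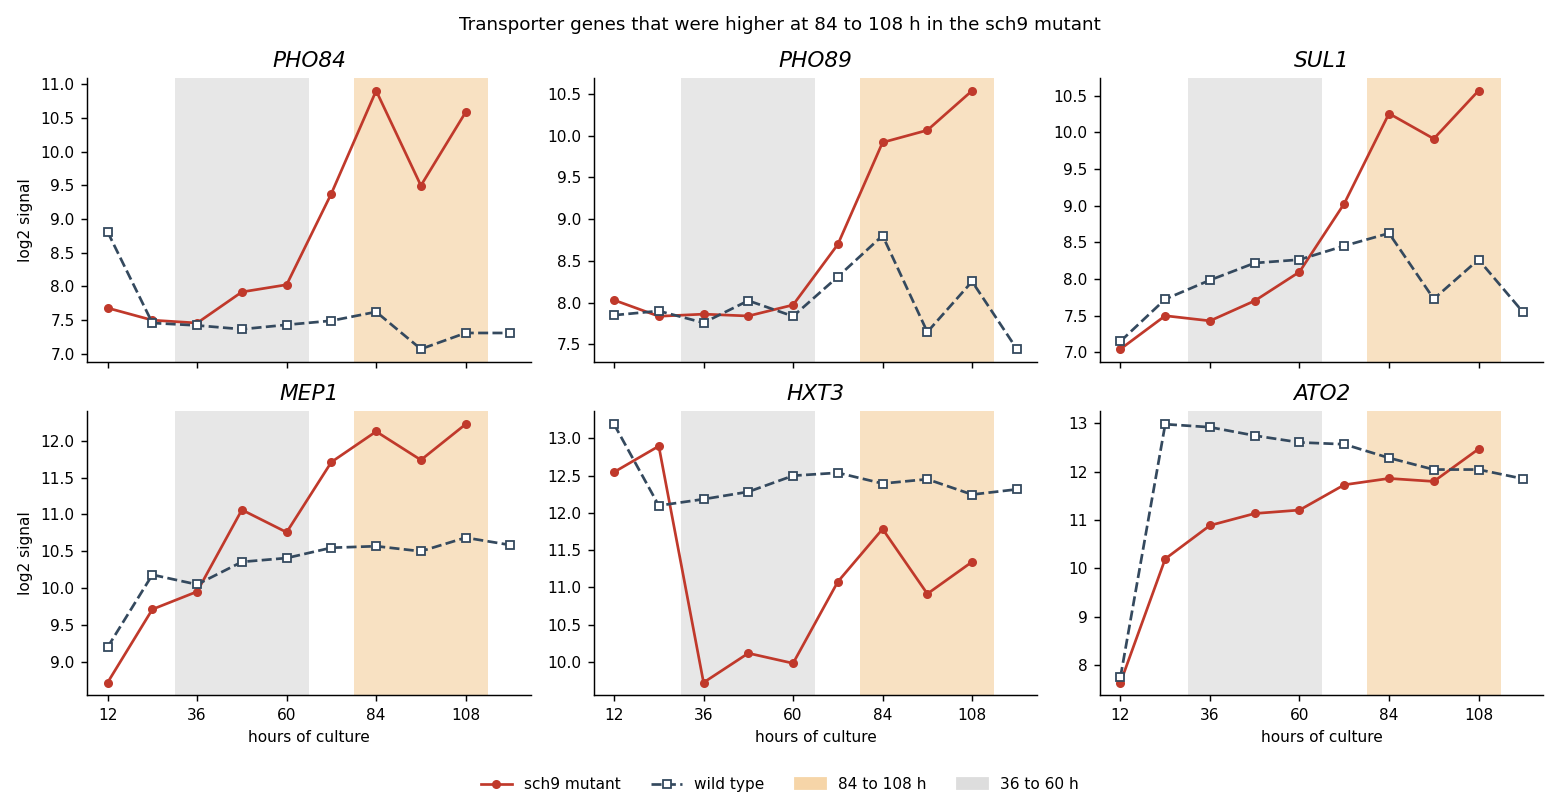
Log2 signal (vertical axis) of 6 transporter genes against hours of culture (horizontal axis) in the sch9 mutant (red, filled circles) and the wild type (dark, open squares), 1 array per point, with the window of 84 to 108 h in orange and that of 36 to 60 h in grey. In the mutant PHO84 stood at 10.91, 9.50 and 10.59 in the late window and at 7.45, 7.92 and 8.02 in the early one, while the wild type stayed between 7.07 and 7.62 in the late window and between 7.36 and 7.43 in the early one.

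Iron regulon genes passed as higher more often than genes at large. Of 33 genes of the iron regulon, the targets of the transcription factors Aft1 and Aft2, 7 (21.2%) rose and none fell, against 4.83% and 7.03% of all genes, and 27 differences were positive with a median of 0.19. MRS4, which carries iron into mitochondria, read 11.33, 11.18 and 11.40 at 84, 96 and 108 h and 10.57, 10.78 and 10.60 at 36, 48 and 60 h, a rise of 0.65 (SE 0.09, adjusted p = 0.0204). FTH1, a permease that brings iron out of the vacuole, rose by 0.43 (SE 0.07, adjusted p = 0.0206), and FRE4, a ferric reductase gene, by 0.64 (SE 0.13, adjusted p = 0.0275). The count was 9 in the deposited values, 8 with median centring and 7 with cyclic loess, and between 0 and 6 genes rose when single arrays were left out.

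Ribosomal protein genes held many that rose. RPS22B (YLR367W), for a protein of the small subunit, read 10.61, 10.73 and 11.20 at 84, 96 and 108 h and between 8.80 and 9.04 at 36 to 60 h. The windows lay far apart, and the rise was 1.90 (SE 0.15, adjusted p = 0.00521), or 3.73-fold. Its paralogue RPS22A, which encodes nearly the same protein, differed by 0.47 and did not pass (adjusted p = 0.122). RPS9A (YPL081W) read 11.13, 10.27 and 10.66 late and 8.80, 9.09 and 9.76 early, a rise of 1.47 (SE 0.28, adjusted p = 0.0255), and its paralogue RPS9B differed by 0.30 (adjusted p = 0.1). RPL5, the large subunit protein that binds 5S RNA, rose by 0.45 (SE 0.09, adjusted p = 0.0271).

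Among 127 cytosolic ribosomal protein genes 15 (11.8%) rose and none fell, against 4.83% and 7.03% of all genes, and 112 did not pass. The median difference was 0.16, and 104 differences were positive and 23 negative. Relative to the mean of the early window the list median was 0.15 for the 72 h array, and for the late arrays at 84, 96 and 108 h it was 0.22, 0.07 and 0.17, so 96 h lay closest to the early level. With the other scalings 19 (deposited values), 23 (median centring) and 12 (cyclic loess) genes rose, and 1 to 21 when single arrays were left out. Ribosome biogenesis genes, which make and process ribosomal RNA, had the same median of 0.16, with 101 positive and 16 negative differences, but 4 of 117 (3.42%) passed, a share below the background. These were TIF6 (0.52, adjusted p = 0.0301), DBP6 (0.49, adjusted p = 0.0281), MAK21 (0.44, adjusted p = 0.0488) and UTP10 (0.34, adjusted p = 0.0476). DBP6 and UTP10 did not pass in the deposited values, nor UTP10 with median centring, and 1 to 3 members passed in the 3 other scalings. On the same scale the biogenesis list read 0.47, -0.19 and 0.19 in the 84, 96 and 108 h arrays, and without 84 h its median was 0.02. Of 73 mitochondrial ribosomal protein genes 2 (2.74%) rose, MRPL4 by 0.57 (SE 0.10, adjusted p = 0.0209) and MRP4 by 0.41 (SE 0.08, adjusted p = 0.0299). HEF3 (YNL014W), a translation elongation factor gene, fell by 0.89 (SE 0.16, adjusted p = 0.0233).

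Genes for heat shock proteins and chaperones fell more often than genes at large. Of 35 measured genes 17 (48.6%) fell and 1 rose, against 7.03% and 4.83% of all genes, and 32 differences were negative with a median of -0.29. SSA3 (YBL075C), a stress-induced cytosolic Hsp70, read 11.81, 12.15 and 11.88 at 84, 96 and 108 h and 13.14, 12.91 and 12.86 at 36, 48 and 60 h. The windows did not overlap, and the change was -1.02 (SE 0.11, adjusted p = 0.0173), a 2.03-fold fall. The other Hsp70 genes of its class differed by -0.51 for SSA4 (adjusted p = 0.0207), -0.31 for SSA1 (adjusted p = 0.0664) and -0.26 for SSA2 (adjusted p = 0.385). CUR1 (YPR158W), which sorts misfolded proteins, fell by 1.09 (SE 0.19, adjusted p = 0.0209), and its paralogue BTN2 differed by -0.25 (adjusted p = 0.296). HSP42, a small heat shock protein, fell by 0.70 (SE 0.10, adjusted p = 0.0204) and SSE2, an Hsp110 gene, by 0.54 (SE 0.08, adjusted p = 0.0204). SSB2, an Hsp70 that binds ribosomes, was the member that rose, by 0.38 (adjusted p = 0.0427). The calls of SSE2 in the deposited values and of SSE2 and HSP42 with median centring were lost, as was that of SSB2 with cyclic loess. Relative to the early mean the list median was -0.20 for the 72 h array and -0.43, -0.23 and -0.28 for those at 84, 96 and 108 h. In the deposited values 5 members fell, with median centring 4 and with cyclic loess 16, and 0 to 17 fell when single arrays were left out. The list median was -0.12 in the deposited values.

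**Figure D2:**
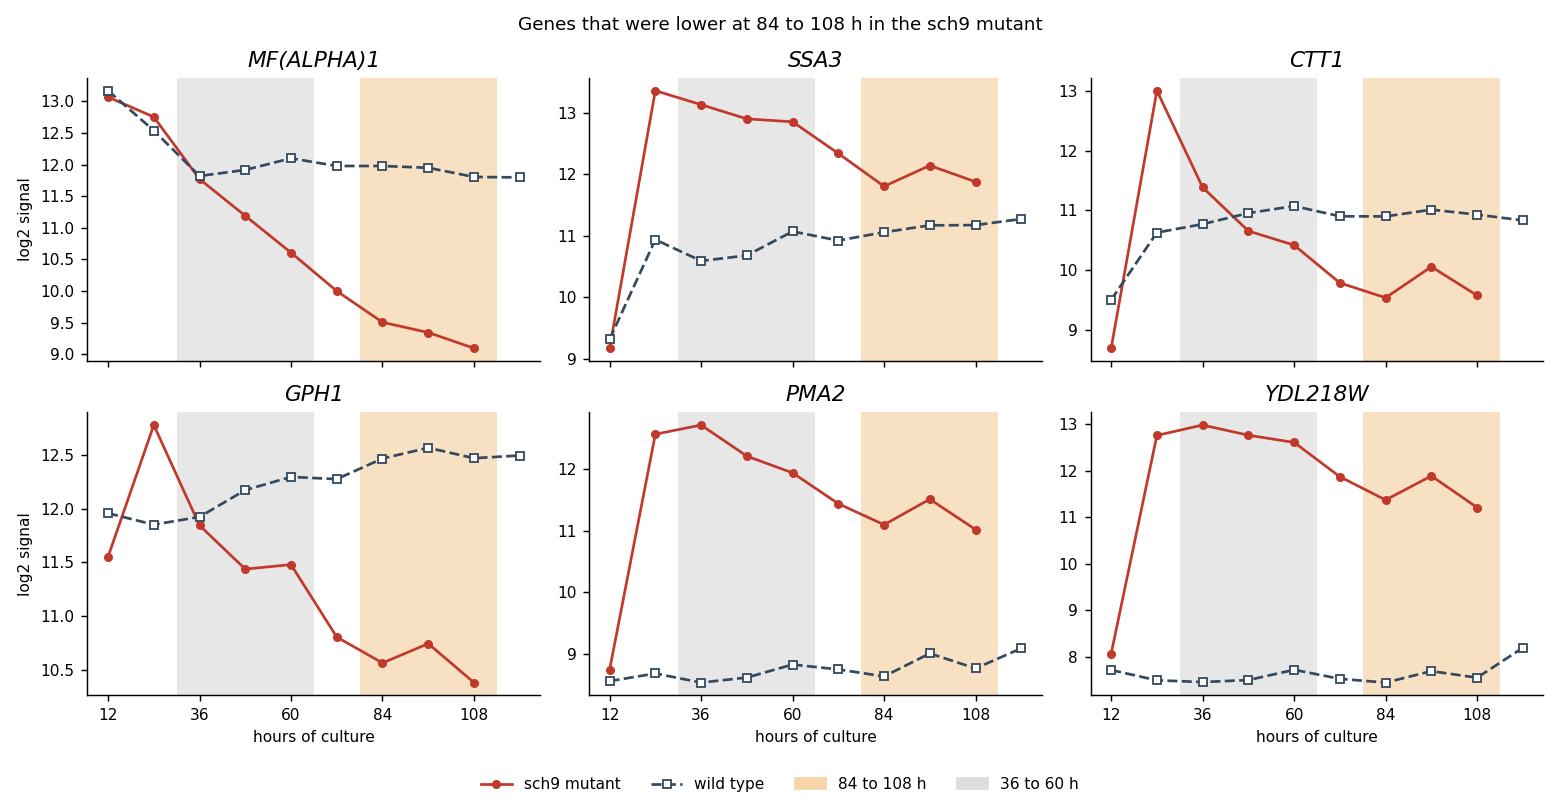
Log2 signal (vertical axis) of 6 genes that fell, against hours of culture (horizontal axis), in the sch9 mutant (red, filled circles) and the wild type (dark, open squares), 1 array per point, with the window of 84 to 108 h in orange and that of 36 to 60 h in grey. SSA3 lay between 11.81 and 12.15 in the late mutant arrays and between 12.86 and 13.14 in the early ones, and MF(ALPHA)1 was lower at each later hour from 12 to 108 h.

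General stress response genes also held many that fell. Of 52 effector genes 19 (36.5%) fell and 1 rose, against 7.03% and 4.83% of all genes, with a median of -0.25 and 41 negative differences. The member that rose was MPC3, a subunit of the mitochondrial pyruvate carrier, by 0.36 (adjusted p = 0.0275). CTT1 (YGR088W), the cytosolic catalase, read 9.54, 10.06 and 9.58 at 84, 96 and 108 h and 11.39, 10.66 and 10.42 at 36, 48 and 60 h. The early values were spread over almost 1 log2 unit and still lay above all late ones, and the fall was 1.09 (SE 0.25, adjusted p = 0.038). The peroxisomal catalase gene CTA1 fell by 0.75 (SE 0.11, adjusted p = 0.0204). TMA17, an assembly chaperone of the proteasome, fell by 0.78 (SE 0.10, adjusted p = 0.0204), and GTO1 (YGR154C), a glutathione transferase, by 1.01 (SE 0.13, adjusted p = 0.0204) from 10.82, 10.42 and 10.32 in the early arrays. In the list of antioxidant defence 8 of 38 genes (21.1%) fell and none rose, against 7.03% and 4.83% of all genes, with a median of -0.13. In the deposited values 6 members of the general stress list and 3 of the antioxidant list fell, and the medians were -0.06 and -0.01, so the size of these shifts rests on the scaling. With cyclic loess the counts were 15 and 6.

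Transcription factors did not show this shift. Of 30 genes for stress and nutrient transcription factors 2 (6.67%) rose and 1 (3.33%) fell in the mutant, against 4.83% and 7.03% of all genes, with a median of 0.02. MSN2 differed by 0.28 (SE 0.08, adjusted p = 0.0526), MIG3 rose by 0.56 (SE 0.10, adjusted p = 0.021), and SIP4, an activator of gluconeogenic genes, fell by 0.51 (adjusted p = 0.0484, lost in the 3 other scalings). In the list of TOR, Ras and protein kinase A signalling none of 36 genes rose and 3 (8.33%) fell, near the share of all genes. RAS2, a small GTPase that drives cyclic AMP synthesis, fell by 0.65 (SE 0.16, adjusted p = 0.0468), CYR1, the adenylate cyclase, by 0.33 (adjusted p = 0.0466) and SNF1, the kinase of glucose derepression, by 0.31 (adjusted p = 0.0338). For RAS2 the 36 h array was the highest at 11.20, with 10.64 and 10.52 at 48 and 60 h and 10.10, 10.16 and 10.14 in the late window. The calls of CYR1 and SNF1 were lost in the 3 other scalings, and that of RAS2 in the deposited values (adjusted p = 0.0508).

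Of 17 glycogen genes 6 (35.3%) fell and none rose, against 7.03% and 4.83% of all genes, the median was -0.35 and 15 differences were negative. GPH1 (YPR160W), the phosphorylase that breaks glycogen down, read 10.57, 10.75 and 10.38 at 84, 96 and 108 h and 11.84, 11.44 and 11.48 at 36, 48 and 60 h, a fall of 1.02 (SE 0.13, adjusted p = 0.0204). GDB1, the debranching enzyme, fell by 0.64 (SE 0.10, adjusted p = 0.0206). GSY2, the main glycogen synthase, fell by 0.79 (SE 0.15, adjusted p = 0.0255), while GSY1 differed by -0.31 (adjusted p = 0.158). Genes for both the making and the breaking of glycogen were thus among those that fell. The count was 5 in the deposited values, 5 with median centring and 7 with cyclic loess, 0 to 8 when single arrays were left out and 0 when the 3' to 5' score entered the fit. Of 7 trehalose genes 1 fell, ATH1, the acid trehalase (-0.54, SE 0.09, adjusted p = 0.0209), and the list median was -0.30.

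Genes of protein breakdown were also among those that fell. Of 37 proteasome genes 12 (32.4%) fell and none rose, against 7.03% and 4.83% of all genes. Of the 37 differences 36 were negative, with a median of -0.26. PRE6, a subunit of the core particle, read 11.00, 10.98 and 10.95 at 84, 96 and 108 h and 11.74, 11.52 and 11.43 at 36, 48 and 60 h, a fall of 0.59 (SE 0.09, adjusted p = 0.0204). PRE9 fell by 0.48 (SE 0.08, adjusted p = 0.0209) and SCL1 by 0.39 (SE 0.07, adjusted p = 0.0209). In the deposited values 1 member fell and with median centring 3, with medians of -0.11 and -0.13, against 10 members with cyclic loess. PRE9 and SCL1 did not pass in the deposited values, nor SCL1 with median centring, and without single arrays 0 to 10 members fell. In autophagy, the delivery of cell contents to the vacuole, 7 of 38 genes (18.4%) fell and 1 rose, against 7.03% and 4.83% of all genes. The list median was -0.19. ATG19, a receptor of the pathway that brings hydrolases to the vacuole, fell by 0.55 (SE 0.10, adjusted p = 0.0209) and its cargo APE1, an aminopeptidase, by 0.64 (SE 0.11, adjusted p = 0.0209), while ATG5, needed to conjugate Atg8 to membranes, rose by 0.69 (SE 0.15, adjusted p = 0.0322).

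Among genes of respiration, the isoforms of cytochrome c changed in opposite directions. CYC1, the main cytochrome c, rose by 0.76 (SE 0.14, adjusted p = 0.0242), with 11.42, 11.67 and 11.78 at 84, 96 and 108 h and 10.60, 10.91 and 11.08 at 36, 48 and 60 h. CYC7, the other cytochrome c isoform, fell by 0.60 (SE 0.08, adjusted p = 0.0204). COX5B, the hypoxic isoform of subunit 5 of cytochrome oxidase, fell by 0.75 (SE 0.13, adjusted p = 0.0209), and COX5A differed by 0.25 (adjusted p = 0.0825). Among 42 subunits of the respiratory complexes and the ATP synthase 1 (2.38%) rose and 3 (7.14%) fell, against 4.83% and 7.03% of all genes. The median was 0.11 and 36 differences were positive. In the deposited values 5 rose and 2 fell, with a median of 0.24, and with median centring 1 and 2, with a median of 0.22. In other isoform pairs GPM2 and URA10 fell by 0.89 and 0.95 (adjusted p = 0.0204 and 0.0206), whereas GPM1 and URA5, which encode the main phosphoglycerate mutase and orotate phosphoribosyltransferase, differed by -0.02 and 0.30 (adjusted p = 0.819 and 0.102). PMA2 (YPL036W), the lesser of the proton pump genes of the cell surface, fell by 1.08 (SE 0.21, adjusted p = 0.026), and the main pump PMA1 differed by -0.14 (adjusted p = 0.35). These pairs were picked after their values had been seen.

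Gluconeogenesis and acetate use showed changes in both directions. FBP1, fructose-1,6-bisphosphatase, read 12.51, 12.55 and 12.58 at 84, 96 and 108 h and 12.13, 11.79 and 11.92 at 36, 48 and 60 h, a rise of 0.60 (SE 0.09, adjusted p = 0.0206). ATO2, a putative ammonium exporter, rose by 0.97 (SE 0.18, adjusted p = 0.0246), and ATO3 of the same family by 0.88 (SE 0.23, adjusted p = 0.0493), while their relative ADY2 differed by 0.15 (adjusted p = 0.789). Of 27 genes in the list 4 rose (14.8%) and 2 fell, against 4.83% and 7.03% of all genes. IMA5 (YJL216C), an isomaltase, rose by 1.79 (SE 0.15, adjusted p = 0.00521), with 9.85, 9.65 and 10.10 late and 7.88, 8.02 and 8.34 early. PDC5, a minor pyruvate decarboxylase, rose by 0.78 (SE 0.14, adjusted p = 0.0215), while PFK26, which makes the glycolytic activator fructose 2,6-bisphosphate, fell by 0.40 (adjusted p = 0.0275, lost in deposited and median-centred values).

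Among single genes, MF(ALPHA)1 (YPL187W), which encodes the precursor of the mating pheromone alpha-factor, had the largest fall. It read 9.51, 9.34 and 9.10 at 84, 96 and 108 h and 11.77, 11.19 and 10.61 at 36, 48 and 60 h. The signal was lower at each later hour, including 72 h, and the fall between windows was 1.87 (SE 0.27, adjusted p = 0.0204), or 3.66-fold. MF(ALPHA)2, the minor gene of the same pheromone, differed by -0.32 (adjusted p = 0.132), and the a-factor genes MFA1 and MFA2 by 0.01 and 0.02 (adjusted p = 0.927 and 0.942). Of 30 genes of mating type and pheromone response 4 (13.3%) fell and 1 rose, against 7.03% and 4.83% of all genes. FIG2, a cell wall adhesin of mating, rose by 0.76 (SE 0.13, adjusted p = 0.0209), and STE6, the exporter of a-factor, fell by 0.41 (SE 0.08, adjusted p = 0.0255).

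YDL218W, a gene with no assigned role, read 11.37, 11.89 and 11.21 at 84, 96 and 108 h and 12.98, 12.76 and 12.61 at 36, 48 and 60 h, a fall of 1.30 (SE 0.18, adjusted p = 0.0204). PRY1 (YJL079C), a secreted sterol-binding protein, fell by 1.04 (SE 0.19, adjusted p = 0.0222), whereas PRY3 of the same family rose by 0.61 (SE 0.12, adjusted p = 0.029) and PRY2 differed by 0.07. RPI1 (YIL119C), a transcriptional regulator of Ras signalling, fell by 1.06 (SE 0.20, adjusted p = 0.0233), and YKL107W by 1.02 (SE 0.17, adjusted p = 0.0207). ERR3 (YMR323W), an enolase-related gene, fell by 1.03 (SE 0.13, adjusted p = 0.0204), but its probe set is shared with near-identical copies, so which copy it reads is uncertain. Among the rises, HPF1 (YOL155C), a cell wall mannoprotein, rose by 1.67 (SE 0.29, adjusted p = 0.0209), with 9.81, 10.09 and 10.13 late and 7.78, 8.18 and 9.07 early. YNR064C, an epoxide hydrolase, rose by 1.59 (SE 0.23, adjusted p = 0.0204), and YMR244W, which has no assigned role, by 1.83 (SE 0.40, adjusted p = 0.0338), with 8.77 at 96 h as its lowest late array.

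Cell surface and lipid genes were divided. SCW10, a cell wall glucanase-like protein, rose by 1.06 (SE 0.17, adjusted p = 0.0206) and was the 1 gene that passed when the 3' to 5' score entered the fit, at 1.53 (SE 0.11, adjusted p = 0.0142). CWP2, a major mannoprotein of the wall, read 12.74, 12.70 and 12.41 at 84, 96 and 108 h and 13.56, 13.54 and 13.37 at 36, 48 and 60 h, a fall of 0.87 (SE 0.11, adjusted p = 0.0204). TIR3, a mannoprotein of cells short of oxygen, fell by 0.88 (SE 0.13, adjusted p = 0.0204). In the ergosterol pathway 3 of 28 genes rose and 3 fell (10.7% each), against 4.83% and 7.03% of all genes. The regulators UPC2 (0.50, adjusted p = 0.0246) and ECM22 (0.54, adjusted p = 0.0344) and the last enzyme ERG4 (0.38, adjusted p = 0.0255) rose. ERG24, ERG6 and ERG5 fell by 0.57, 0.47 and 0.52 (adjusted p = 0.0275, 0.0484 and 0.0489). The call of ERG5 was lost in the 3 other scalings, that of ERG24 in the deposited and the median-centred values, and those of ERG6 and UPC2 in the deposited values. OPI3, a methyltransferase of phosphatidylcholine synthesis, fell by 0.74 (SE 0.13, adjusted p = 0.021), a call lost with median centring.

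**Figure D3:**
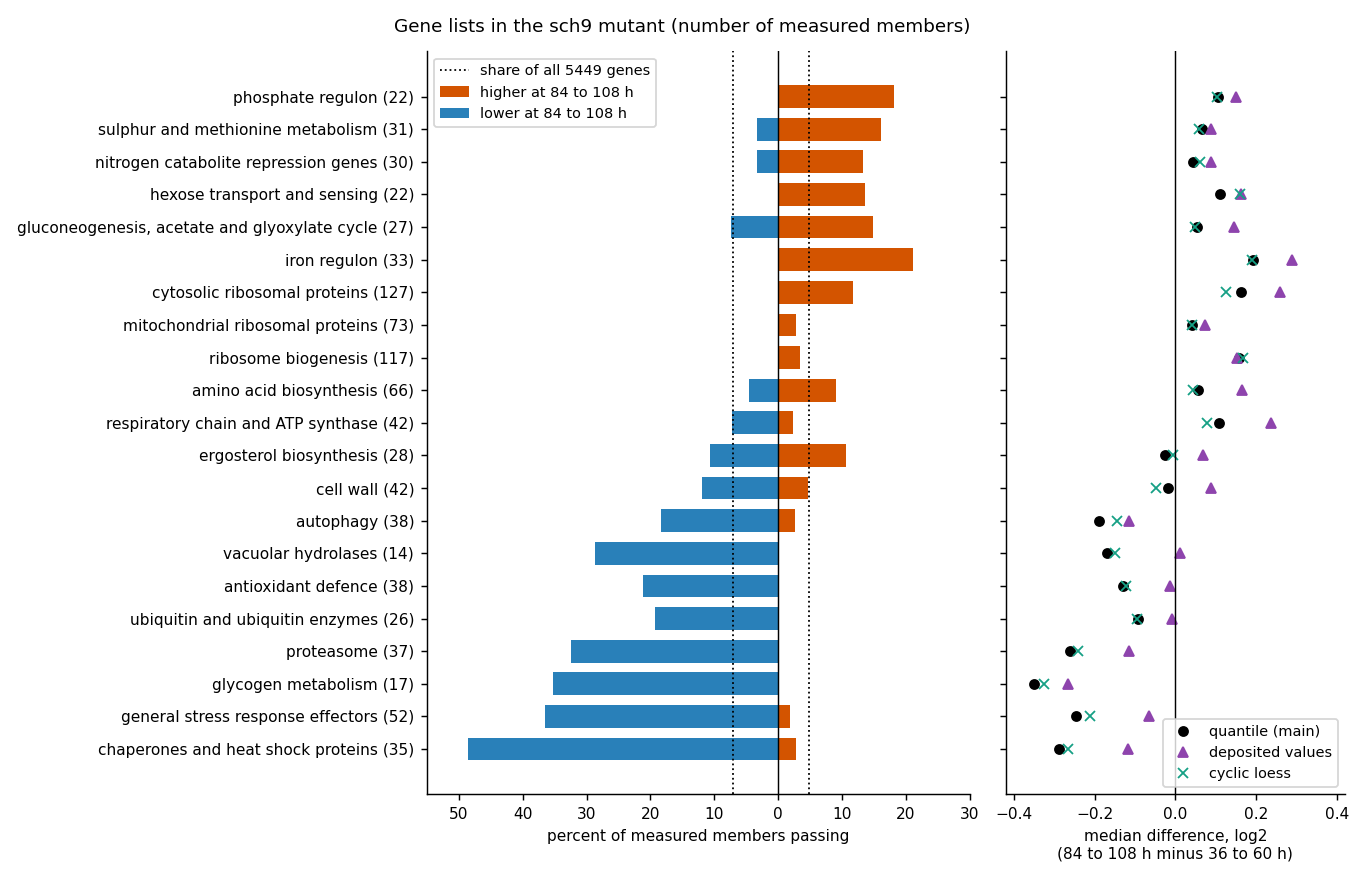
Share of the measured members of 21 gene lists that were higher (orange, to the right) or lower (blue, to the left) at 84 to 108 h than at 36 to 60 h in the sch9 mutant, with dotted lines at 4.83% and 7.03%, the shares of all 5449 genes (left), and the median log2 difference of each list in the main and 2 other scalings (right). Chaperones (48.6%), general stress effectors (36.5%), glycogen genes (35.3%) and the proteasome (32.4%) held the highest shares of genes that fell, and the purple triangles lie right of the black points for these lists.

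The array at 72 h was not used to choose the genes. For 619 of the 646 genes that passed it lay between the means of the windows, for 27 it lay beyond the late mean and for none beyond the early mean. The windows of these genes lay apart on either side of 72 h, so any gradual change would place most of them between. The same share over all genes was not computed, and the count is a description only. The median gene had covered 66.7% of its difference by 72 h (quartiles 53.9% and 78.6%), at 66.2% among the genes that rose and 67.1% among those that fell. Relative to the mean of the early window the medians at 12, 24 and 72 h were 0.28, -0.19 and 0.32 for the 263 genes that rose and -0.55, 0.27 and -0.30 for the 383 that fell. The direction of both sets at 12 h was thus that of the late window, and at 24 h the opposite one. If the 72 h array is counted with the late window 904 genes passed, with 599 of the 646 among them. If it is counted with the early window none did in limma, with 1387 genes at an unadjusted p under 0.05, and the difference of PHO89 was then 2.08 (SE 0.23, adjusted p = 0.0967).

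**Figure D4:**
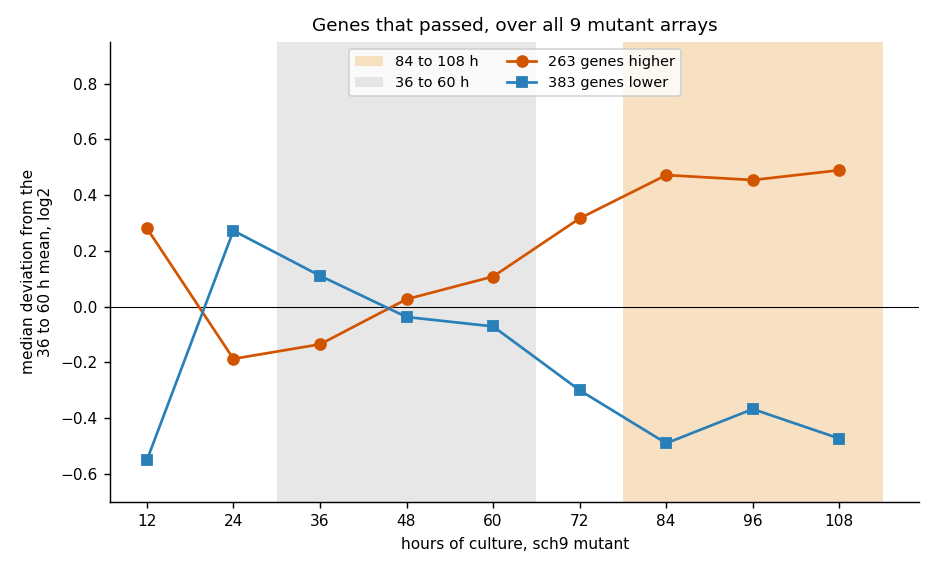
Median log2 deviation (vertical axis) from the mean of the 36 to 60 h window in each of the 9 sch9 mutant arrays, by hours of culture (horizontal axis), for the 263 genes that rose (orange circles) and the 383 that fell (blue squares), with the window of 84 to 108 h in orange and that of 36 to 60 h in grey. The windows were used to choose the genes; the arrays at 12, 24 and 72 h were not, and at 72 h the medians were 0.32 and -0.30.

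Whether the wild type did the same over the same hours was tested as the difference between the changes of the strains, on 12 arrays. This difference passed for 584 of 5449 genes (10.7%), 251 (4.61%) in which the mutant change was the more positive and 333 (6.11%) in which it was the more negative. In the same fit 699 genes (12.8%) passed in the wild type, 284 (5.21%) higher and 415 (7.62%) lower. In the wild type, whose arrays had no part in choosing them, the 263 genes that rose in the mutant had a median change of 0.11 and the 383 that fell one of 0.00, beside 0.02 over all genes. The share in which the mutant change was the more positive was 43.0% of those that passed, against 83.3% in the deposited values, where the median difference of all genes was 0.19, against -0.01 after quantile normalization. The count was between 91 (without the wild-type 108 h array) and 1690 (without the wild-type 60 h array) when single arrays were left out. The 3' probe set of 18S ribosomal RNA lay between 13.77 and 14.57 in the late wild-type arrays and between 8.62 and 10.54 in the early ones, while in the mutant it lay between 7.10 and 7.52 late and between 6.97 and 7.68 early. The 3' to 5' score lay between 1.17 and 1.29 in the late wild-type arrays and between 0.865 and 1.09 in the early ones, a wider shift than in the mutant. The part of these signals in the differences between strains was not tested.

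The phosphate and sulphate uptake genes PHO84, PHO89 and SUL1 passed the test between strains. For PHO84 the wild-type arrays read 7.62, 7.07 and 7.31 at 84, 96 and 108 h and 7.42, 7.36 and 7.43 at 36, 48 and 60 h, and the change differed between strains by 2.60 (adjusted p = 0.00629). For SUL1 the difference was 2.45 (adjusted p = 0.00418), with a wild-type change of 0.05, and for PHO89 it was 1.92 (adjusted p = 0.00847), with 0.36. SUL2 differed by 0.55 in the mutant and by -0.60 in the wild type, neither of which passed, while the difference of 1.15 between strains did (adjusted p = 0.0277). HXT3 differed by 1.36 (adjusted p = 0.0123): the late mutant arrays, at 10.91 to 11.78, remained below the wild-type ones, at 12.25 to 12.45. For MEP1 the difference was 1.13 (adjusted p = 0.0433), lost with cyclic loess (adjusted p = 0.0535), and for RPS22B 1.29 (adjusted p = 0.00942), although RPS22B also rose in the wild type, by 0.61 (adjusted p = 0.0323). YMR244W and JLP1 differed by 1.32 and 0.85 in the wild type without passing there, and the test between strains did not pass (adjusted p = 0.577 and 0.404).

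ATO2 moved in opposite directions. In the mutant it read 11.86, 11.80 and 12.47 late and 10.89, 11.14 and 11.21 early, against 12.29, 12.05 and 12.05 late and 12.92, 12.75 and 12.61 early in the wild type, so the strains came to similar levels. The changes differed by 1.60 (adjusted p = 0.00454). SIP18, a hydrophilin of dry or salt-stressed cells, had a narrow range in the mutant, at 13.76 to 13.82 late and 13.79 to 13.83 early. It was among the 10 highest genes in these mutant arrays, whose highest gene read 14.20, and whether a further increase there could have been measured was not tested. In the wild type it read 11.79, 12.46 and 12.71 late and 10.52, 10.34 and 10.80 early, and the difference between changes was -1.81 (adjusted p = 0.00454). The retrotransposon genes YAR009C and YDR261C-D, read by probe sets that many copies share, had differences of -1.60 and -1.50 (adjusted p = 0.0273 and 0.0198), with changes of -0.86 and -0.90 in the mutant that did not pass there.

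MF(ALPHA)1 did not pass in the wild type, at 11.98, 11.95 and 11.80 late and 11.82, 11.91 and 12.10 early. At 36 h the strains stood at 11.77 in the mutant and 11.82 in the wild type, and at 108 h they stood at 9.10 and 11.80. The difference between the changes was -1.84 (adjusted p = 0.00847). GPH1 differed by 0.37 in the wild type (adjusted p = 0.0727) and the changes differed by -1.39 (adjusted p = 0.00418), and for SSA3, with 0.35 in the wild type, they differed by -1.38 (adjusted p = 0.00418). SSA3 stayed above the wild type even after its fall, at 11.81 to 12.15 in the late mutant arrays and 11.06 to 11.18 in the late wild-type ones. PMA2 and YDL218W also fell from mutant levels far above the wild type: YDL218W stood at 11.21 to 11.89 in the late mutant arrays, against 7.44 to 7.68 in the late wild-type arrays, and the changes differed by -1.30 (adjusted p = 0.00847).

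Among the gene lists, the mutant change was the more negative for 9 of 35 chaperone genes, 12 of 52 general stress effectors, 6 of 17 glycogen genes and 8 of 28 ergosterol genes, against 6.11% of all genes. It was the more positive for 12 of the 42 respiratory and ATP synthase genes, 8 of 31 of sulphur metabolism and 6 of 30 stress and nutrient transcription factors, against 4.61%. The median change of these transcription factors was 0.02 in the mutant and -0.23 in the wild type. In the wild type 10 of 30 fell and none rose, against 7.62% and 5.21% of all genes in that strain. The median change of the respiratory list was 0.11 in the mutant and -0.17 in the wild type, and that of the ergosterol list -0.03 and 0.23. The proteasome median was -0.26 in the mutant and -0.31 in the wild type, and 2 of 37 genes passed the test between strains. The ribosomal proteins had a median of 0.16 in the mutant and 0.34 in the wild type. There 67 of 127 rose, against 5.21% of all genes in the wild type. For 13 of the 127 the mutant change was the more negative, against 6.11% of all genes.

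**Figure D5:**
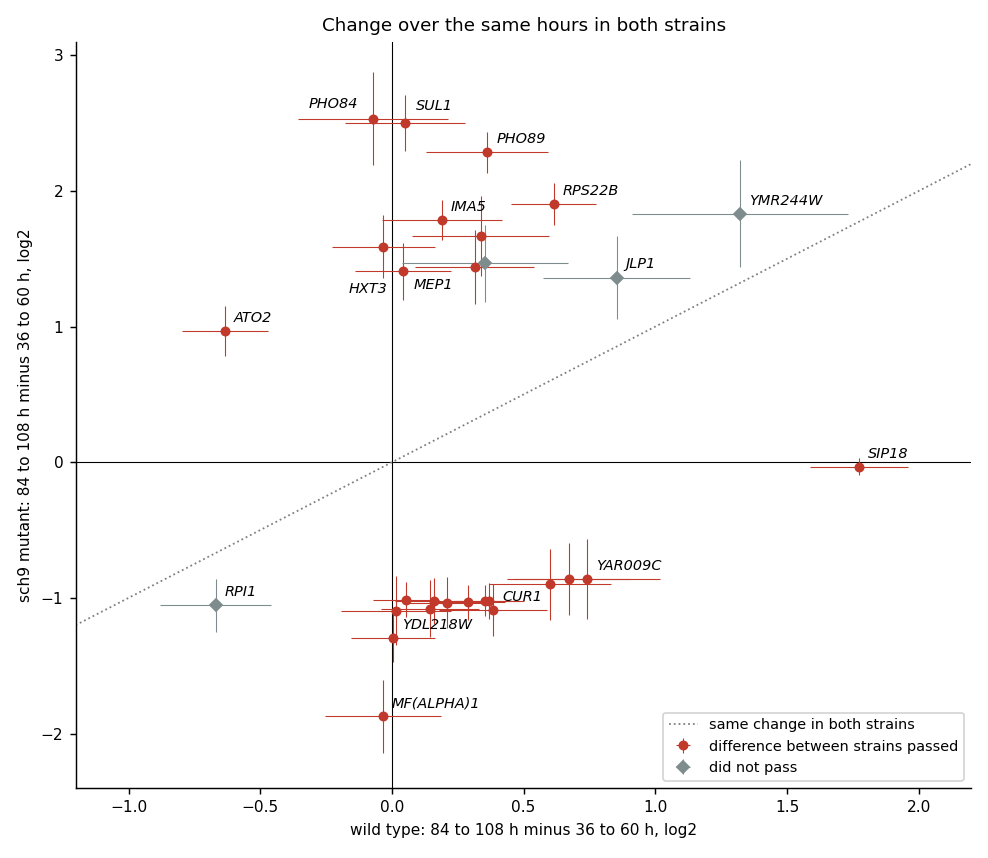
Log2 change between 84 to 108 h and 36 to 60 h in the sch9 mutant (vertical axis) and in the wild type (horizontal axis) for the genes with the largest changes in the mutant and the largest differences between strains, with bars of 1 standard error. Red circles passed the test of the difference between strains and grey diamonds did not; the dotted line marks the same change in both strains. PHO84 lies at 2.53 in the mutant and -0.07 in the wild type, and SIP18 at -0.03 and 1.77.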

How the data were processed

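The deposited values were probe set summaries on a log2 scale from Affymetrix Yeast 2.0 arrays, between 5.76 and 15.02; that the authors deposited log2 values was read from the values, while their software and normalization are named neither in the labels nor in the file headers. Labelling followed the standard Affymetrix protocol, per the labels. After 51 control probe sets and 265 with no gene name were set aside, 5498 of 5814 remained, named through the platform annotation with 12 symbols updated from RefSeq. Where several probe sets read a gene (47 genes) only the brightest on average was used. This left 5449 genes, 115 of them read by shared probe sets. Values of these genes were quantile-normalized over the 19 arrays. The late minus early difference was fitted with limma 3.58.1 in R 4.3.3 (lmFit, eBayes) on the 6 mutant arrays, and the difference between strains on 12 arrays. The threshold was 0.05 for p-values that limma's output adjusted by Benjamini-Hochberg across all 5449 genes. The 45 gene lists were described by counts and medians and not tested. The arrays and lists were chosen with earlier results of these data known, and 4 misplaced genes, none of which passed, were taken out of lists after the values were seen.

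Named were SCH9 and URA3, the 12 largest differences in each direction among the genes that passed in the mutant, the 6 largest in each direction between strains, up to 3 members of each list with the smallest p in each direction, and relatives of these. Precision is limited by 1 array per strain and hour, so no replicate culture enters any error. Alternatives were cyclic loess, median centring, no further normalization of the deposited values, the mean of a gene's probe sets, leaving out the dimmest 25% of genes, an intensity trend with a robust prior, quantile normalization over the 6 arrays, all 19 arrays in the fit, a covariate for the 3' to 5' score, a slope over hours, 72 h in either window, a stricter threshold, a 2-fold minimum, another wild-type window, hours as blocks and leaving out each array. Control scores were compared with a two-sided exact permutation test. On simulated data with 5449 genes and independent arrays, planted late minus early differences of 0.5 and 1 were found in 75% and 99% of cases and planted differences between strains in 56% and 98%, with 7 and 5 genes called outside them. Every simulated array, wild type included, took its spread from the mutant fit, with no drift over hours. The rates therefore need not hold for neighbouring hours of what may be a single culture. A planned search of promoters for motifs was not run.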

Additional observations from a re-analysis of the deposited data

Results flagged for a closer look

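The change from 36 to 60 h to 84 to 108 h differed between the sch9 mutant and the wild type, by the interaction test, for 584 genes. Among those named it was the more positive in the mutant for the phosphate transporter genes PHO84 (2.60) and PHO89 (1.92), the sulphate permease gene SUL1 (2.45), the ammonium permease gene MEP1 (1.13), the glucose transporter gene HXT3 (1.36), the putative ammonium exporter gene ATO2 (1.60), the ribosomal protein gene RPS22B (1.29), the isomaltase gene IMA5 (1.60), the mannoprotein gene HPF1 (1.33) and the epoxide hydrolase gene YNR064C (1.62). It was the more negative in the mutant for the pheromone gene MF(ALPHA)1 (-1.84), the hydrophilin gene SIP18 (-1.81), the sorting factor gene CUR1 (-1.48), the glycogen phosphorylase gene GPH1 (-1.39), the Hsp70 gene SSA3 (-1.38), YDL218W (-1.30), the sterol-binding protein gene PRY1 (-1.25), the proton pump gene PMA2 (-1.22), YKL107W (-1.18), the catalase gene CTT1 (-1.11) and the glutathione transferase gene GTO1 (-1.07). Probe sets shared by near-identical copies gave ERR3 (-1.32), YAR009C (-1.60), YER138W-A (-1.53) and YDR261C-D (-1.50), which are uncertain. The difference was lost with median centring and cyclic loess for HPF1 (adjusted p = 0.0523 and 0.0569), with cyclic loess for MEP1 (0.0535) and in the deposited values for CTT1 (0.097), CUR1 (0.0503), PRY1 (0.0625) and GTO1 (0.067). Of the 12 fits without single arrays it passed in 3 for HPF1, 3 for MEP1, 4 for CTT1 and 4 for YAR009C. SIP18 was close to the top of the signal scale in the mutant. The cause of these differences was not tested.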

How the results depend on the processing

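The direction of each of the 646 genes held in every setting listed here, while the number that passed did not. The direction was fixed in advance without single arrays, as the windows did not overlap, and where the differences were unchanged, as with all 19 arrays or another threshold. With 72 h among the late arrays it could not turn either, since no 72 h value lay beyond the early mean. With 72 h among the early arrays it could not turn for the 619 genes whose 72 h value lay between the window means. For the mutant late minus early comparison (646 genes, 263 higher and 383 lower) 3 genes passed with all 19 arrays in the fit (2 and 1), 1 when the 3' to 5' score entered the fit (1 and 0), 1192 as a slope per day from 36 to 108 h (578 and 614; 606 shared), none with 72 h among the early arrays (0 and 0; 1387 at an unadjusted p under 0.05), 4 at an adjusted p under 0.01 (4 and 0) and 29 at a 2-fold minimum (17 and 12). Deposited values gave 198 lower and 244 higher genes, median centring 249 and 292. Leaving out single arrays gave 4 to 847 genes, 4 to 316 higher and 0 to 531 lower. For the difference between strains (584, 251 and 333) there were 989 with the wild-type window at 96 to 120 h (418 and 571), 53 at an adjusted p under 0.01 (27 and 26) and 66 at a 2-fold minimum (30 and 36); the deposited values gave 473 and 95. Leaving out single arrays gave 91 to 1690, 42 to 804 and 49 to 886. Of 147 passing genes followed in the mutant 85 passed in all 3 other scalings and 4 in all 6 fits without single arrays. Of 25 passing genes followed between strains 19 passed in all 3 other scalings and 16 in all 12 fits without single arrays. URA3 (-0.02) turned to 0.013 with cyclic loess and lay between -0.081 and 0.021 without single arrays, turning positive without 108 h or 36 h, and the difference of RPI1 between strains (-0.39) was 0.038 in the deposited values. The median of all genes stayed between -0.01 and 0.03 in the mutant comparison, and for the difference between strains it was 0.19 in the deposited values, against -0.01 in the main setting, -0.04 with median centring and -0.01 with cyclic loess. The labels give no replicate numbers, and with the strains paired by hour of culture as a block 588 genes differed between them, 445 of them shared. The causes were not tested.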

Other observations

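Gene groups outside the accounts above held single genes that passed. In the mutant the histone variant gene HTZ1 rose by 0.55 (SE 0.11, adjusted p = 0.0301) while no other of 10 histone genes passed, and the list median was -0.07. Of 36 DNA replication genes 4 (11.1%) fell and none rose, against 7.03% and 4.83% of all genes, with a list median of -0.03 and with RFC5, a subunit of the clamp loader, at -0.41 (adjusted p = 0.042), and 3 of 24 cyclin and cell cycle genes (12.5%) fell, the inhibitor of cyclin-dependent kinase FAR1 by 0.59 (adjusted p = 0.0484), the G1 regulator SWI4 by 0.36 (adjusted p = 0.0358) and the inhibitor SIC1 by 0.31 (adjusted p = 0.0316), none of which passed in the deposited values. Of the genes that part daughter from mother cells, EGT2 rose by 0.66 (adjusted p = 0.0356). Among 43 genes of meiosis and sporulation 1 (2.33%) rose and 3 (6.98%) fell, no more than the 4.83% and 7.03% of all genes. The transcription factor gene NDT80 rose by 0.93 (SE 0.16, adjusted p = 0.0209), with 9.66, 9.90 and 10.21 at 84, 96 and 108 h and 8.82, 8.93 and 9.22 at 36, 48 and 60 h. The meiotic cohesin gene REC8 fell by 0.72 (SE 0.11, adjusted p = 0.0204) and the recombinase gene DMC1 by 0.41 (adjusted p = 0.0356).

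In metabolism, LPX1, a peroxisomal lipase, rose by 0.98 (SE 0.17, adjusted p = 0.0209), with 11.93, 12.34 and 12.24 late and 11.21, 10.89 and 11.48 early. In its list of 46 peroxisome and fatty acid oxidation genes 1 (2.17%) rose and 2 (4.35%) fell, both below the 4.83% and 7.03% of all genes. URA1, dihydroorotate dehydrogenase, rose by 0.79 (SE 0.10, adjusted p = 0.0204). Of 14 glycerol genes 3 (21.4%) fell, against 7.03% of all genes, GCY1, a glycerol dehydrogenase, by 0.61 (SE 0.07, adjusted p = 0.0173), the kinase gene DAK1 by 0.44 and the mitochondrial dehydrogenase gene GUT2 by 0.38. None of these passed in the deposited values and GCY1 alone with median centring, and the list median was 0.12 with 8 positive differences. Among 66 amino acid biosynthesis genes 6 (9.09%) rose and 3 (4.55%) fell, against 4.83% and 7.03% of all genes. ALT1, an alanine transaminase, rose by 0.63 and ARO8, an aromatic transaminase, by 0.61 (adjusted p = 0.025 and 0.0222). In the list of sirtuins and NAD salvage 2 of 26 genes (7.69%) rose and 1 (3.85%) fell, against 4.83% and 7.03% of all genes. BNA2, which starts the synthesis of NAD from tryptophan, rose by 0.45 (SE 0.07, adjusted p = 0.0206). PNC1, a nicotinamidase, fell by 0.40 (adjusted p = 0.0426), a call lost in the 3 other scalings.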
